A study of Mus musculus with 8 samples.

Results

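The 9 apoptosis and p53 pathway genes described here were Bax, Bid, Bcl2, Bcl2l1, Casp8, Fadd, Trp53, Cdkn1a and Birc5. They were chosen by gene symbol, and all 9 were found among the 750 genes of a NanoString nCounter mouse immune panel, which counts color-coded probes bound to single RNA molecules. RNA came from whole peritoneal tumors of male wild-type C57BL/6 mice that had received MC38 colon cancer cells in the peritoneum. From day 7 after implantation, mice were injected intraperitoneally with the STING agonist RR-CDA or with an equal volume of PBS, and 4 tumors per group were measured. The paper places this comparison days after the initial injection, so the values are not of the early hours of treatment. The panel counts of a tumor summed to between 241506 and 414698. Over the 358 genes of 20 to 300 counts, PBS tumors 2 and 4 differed by less than sampling noise (chi-square of 0.404 per degree of freedom, while the 11 other pairs within a group had 5.89 to 12.6). Over the 61 genes of at least 1000 counts they differed by more than that noise, at 6.39 by the same measure, where the other pairs gave 45.1 to 364. They were counted as 1 sample, so n = 3 PBS samples and n = 4 STING agonist samples, and results with all 8 tumors separate are given in the closing section. The data were pooled from separate experiments by the study's legend, and the labels do not say which tumor belongs to which experiment or that the replicates are separate animals, so p-values measure the spread between these samples.

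Cells die by apoptosis when members of the BCL-2 family permeabilize the mitochondrial outer membrane. Bax is a pore former of this family, Bid links death receptors to it, and Bcl2 and Bcl2l1 (BCL-XL) hold it in check. Death receptors recruit the adaptor FADD and activate caspase-8, while p53 is a stress-activated transcription factor whose best known target, Cdkn1a, encodes the cell cycle inhibitor p21; Birc5 encodes survivin, which is made in dividing cells.

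None of the 9 genes passed the test. With each sample scaled to the geometric mean of 20 housekeeping genes, edgeR's quasi-likelihood test gave the 9 genes adjusted p-values from 0.332 to 0.993, and 0 of the 9 had an unadjusted p under 0.05. Over all 750 genes the same test gave 0 with an adjusted p under 0.05 (0.0% of the panel), while at an unadjusted p under 0.05 it gave 133 genes higher (17.7%) and 10 lower (1.33%). On the same scale 52 genes had an adjusted p under 0.05 by the Wald test of DESeq2 and 0 by limma; neither call included any of the 9 genes. The normalized counts of PBS and STING agonist samples did not overlap in 2 of the 9 genes, Bax and Bid, both higher after treatment, where 16.8% of the panel was higher without overlap and 1.47% lower.

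The median log2 fold change of the 9 genes was 0.23, beside 0.21 for all 750 genes. Scaled to the positive control probes, which like the housekeeping genes lie outside the 750, the panel median was 0.23 and that of the 9 genes 0.25, and an unadjusted p under 0.05 was found for 89 higher and 7 lower genes. These probes read targets added to the assay, not tumor RNA, so this scale leaves differences in RNA input between samples uncorrected. TMM normalization and DESeq2 size factors, set from the 750 genes themselves, bring the panel close to 0 by construction, and its median was -0.02 and -0.04. The total count fixes only the sum of the counts, and with it the panel median was 0.01. The split of genes became 87 higher and 40 lower with TMM. The median of the 9 genes was -0.01 with TMM, -0.03 with DESeq2 size factors and 0.01 with the total count. Probes differ in efficiency, so a higher count of one gene than of another need not mean more of its RNA, and genes are ordered below by probe count alone. In a bulk tumor fewer cells of a type cannot be told apart from less RNA per cell.

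**Figure D1:**
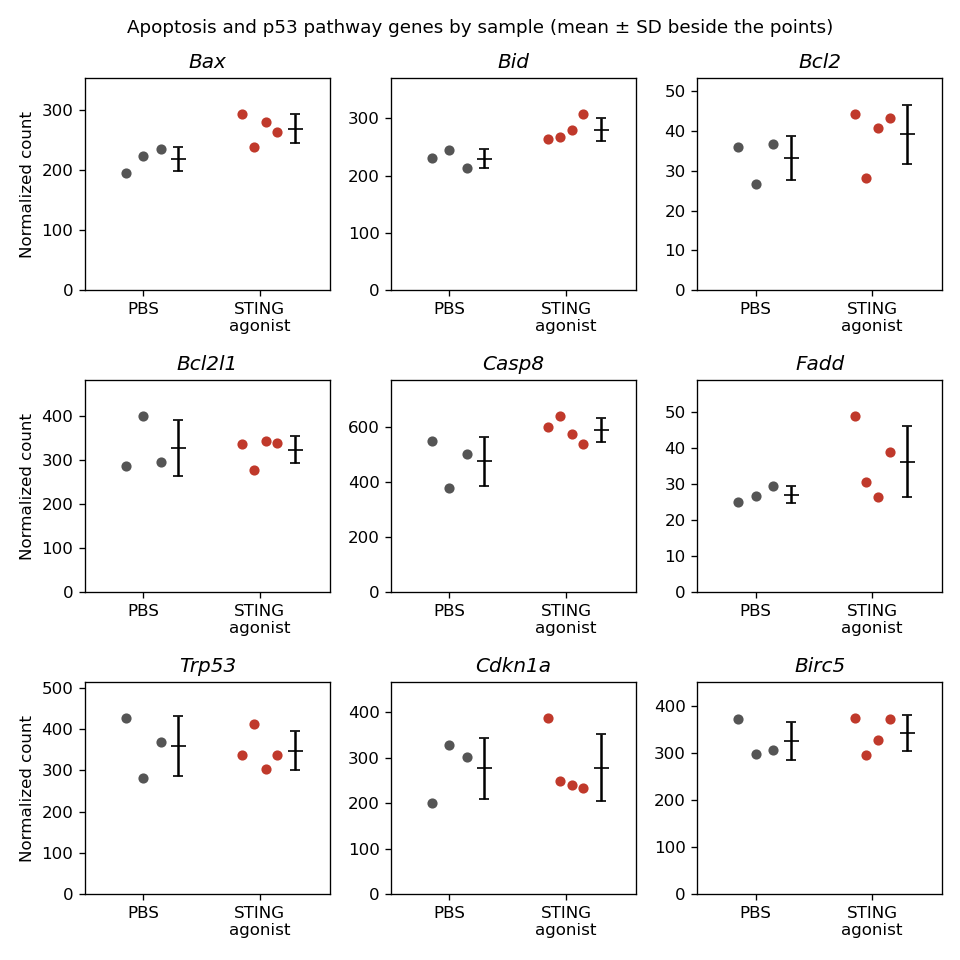
Normalized count of each of the 9 genes in each sample (points; PBS grey, n = 3 with tumors 2 and 4 averaged; STING agonist red, n = 4), with the group mean and SD beside the points. Bax and Bid are the genes in which all treated samples lie above all PBS samples, and in the other 7 the groups overlap.

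Bax, the pore-forming death effector, had 195 normalized counts in PBS 1, 223 in the average of PBS 2 and 4, and 234 in PBS 3, and 293, 237, 279 and 263 in STING agonist 1 to 4. The treated samples were all above the PBS samples, the narrowest gap lying between PBS 3 and STING agonist 2. The means were 217 (n = 3, coefficient of variation 9.20%) and 268 (n = 4, 8.96%), a log2 fold change of 0.30 with a standard error of 0.16 (95% confidence interval -0.05 to 0.66, adjusted p = 0.332, edgeR). An exact permutation test over 35 arrangements, two-sided, gave p = 0.057, or 0.300 after adjustment over the panel. Bid, which is cleaved by caspase-8 to carry a death receptor signal to mitochondria, had 231, 245 and 213 normalized counts in the PBS samples and 264, 266, 280.0 and 308 in the treated samples. Again the groups did not overlap, and STING agonist 4 was the highest. The means were 230 ± 16.2 and 280 ± 20.2 (SD), with a log2 fold change of 0.29 and a standard error of 0.15 (95% interval -0.05 to 0.62, adjusted p = 0.332, edgeR). The exact permutation test gave p = 0.029, the smallest that 35 arrangements allow, or 0.258 after adjustment. With TMM normalization the log2 fold changes were 0.05 for Bax and 0.03 for Bid, and the groups overlapped in both. With the positive control probes, which do not correct for RNA input, the log2 fold changes were 0.33 and 0.35, and the groups overlapped in both there too.

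Printed here are the promoters of Bax and Bid, of the ligand genes Tnfsf10 and Ltb, whose groups were also separated, and of Casp8, whose groups overlapped. Ripk2, the other described pathway gene with separated groups, was not found in the table. They are as RefSeq (GRCm38.p6) gives them, 250 bases before to 50 after the start. Capitals mark matches to an interferon regulatory factor core (AANNGAAA), a p53 half-site, the gamma-activated sequence TTCNNNGAA and the NF-kB motif GGACTTTCC. Both strands were searched, and matches to different motifs do not overlap.
Bax, chr7:45466849-45467148, minus strand: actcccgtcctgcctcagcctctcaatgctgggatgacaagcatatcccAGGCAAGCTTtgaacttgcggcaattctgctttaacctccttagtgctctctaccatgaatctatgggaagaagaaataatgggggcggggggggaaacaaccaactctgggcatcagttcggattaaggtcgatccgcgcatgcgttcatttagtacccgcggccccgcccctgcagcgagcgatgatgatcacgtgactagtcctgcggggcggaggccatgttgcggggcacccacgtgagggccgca
Bid, chr6:120916775-120917074, minus strand: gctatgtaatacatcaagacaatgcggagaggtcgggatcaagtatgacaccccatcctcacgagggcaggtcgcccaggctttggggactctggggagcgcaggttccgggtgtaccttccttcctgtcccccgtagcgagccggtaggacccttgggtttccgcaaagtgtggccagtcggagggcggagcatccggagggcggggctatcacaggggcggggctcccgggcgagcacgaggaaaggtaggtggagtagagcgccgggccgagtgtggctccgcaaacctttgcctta
Casp8, chr1:58802252-58802551, plus strand: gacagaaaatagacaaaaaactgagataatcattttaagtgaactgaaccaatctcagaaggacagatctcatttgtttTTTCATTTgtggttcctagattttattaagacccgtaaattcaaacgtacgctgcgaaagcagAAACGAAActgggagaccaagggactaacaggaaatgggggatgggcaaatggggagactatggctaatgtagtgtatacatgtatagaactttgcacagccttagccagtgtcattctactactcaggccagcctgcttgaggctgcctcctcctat
Tnfsf10, chr3:27316827-27317126, plus strand: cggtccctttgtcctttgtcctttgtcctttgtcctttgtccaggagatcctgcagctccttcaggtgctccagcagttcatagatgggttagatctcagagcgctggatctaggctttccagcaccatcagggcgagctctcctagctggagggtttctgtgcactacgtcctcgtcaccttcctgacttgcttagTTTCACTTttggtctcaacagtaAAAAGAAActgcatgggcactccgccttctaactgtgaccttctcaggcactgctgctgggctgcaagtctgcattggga
Ltb, chr17:35194257-35194556, plus strand: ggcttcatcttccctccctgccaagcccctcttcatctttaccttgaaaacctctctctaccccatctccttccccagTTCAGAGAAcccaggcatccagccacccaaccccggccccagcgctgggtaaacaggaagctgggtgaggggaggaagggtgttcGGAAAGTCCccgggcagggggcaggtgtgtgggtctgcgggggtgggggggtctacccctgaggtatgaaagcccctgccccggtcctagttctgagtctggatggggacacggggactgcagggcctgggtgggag
The Bax window held a stretch of bases that matches the degenerate p53 half-site on either strand, the Bid window held neither motif, and those of Casp8 and Tnfsf10 each held 2 matches to the interferon regulatory factor core. The Ltb window held no match to that core, but 1 stretch that matches the gamma-activated sequence on either strand and 1 match to the NF-kB motif. That core was found in 23.9% of all 32851 promoters in the table and in 4 of the 12 promoters of the 9 genes (some genes have several starts), those of Casp8, Cdkn1a (1 start) and Bcl2l1 (2 starts), the latter genes with log2 fold changes of 0.01 and -0.01, and the p53 half-site in 8.36% and in 4 of 12. The genes with the p53 half-site were Bax, Trp53, Birc5 and Cdkn1a, with log2 fold changes of 0.30, -0.05, 0.08 and 0.01. The gamma-activated sequence was in 8.3% of all promoters and in 0 of 12, and the NF-kB motif was in 0.344% and in 2 of 12, those of Trp53 and Birc5. A match is a description of letters, and nothing here measured binding.

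The anti-apoptotic genes had overlapping groups. Bcl2 had 36.1, 26.8 and 36.7 normalized counts in the PBS samples and 44.4, 28.1, 40.9 and 43.2 in the treated samples. STING agonist 2 lay inside the PBS range and the other 3 treated samples above it. The log2 fold change was 0.23 with a standard error of 0.30 (95% interval -0.44 to 0.90, adjusted p = 0.738, edgeR), and it was -0.01 with TMM and -0.03 with DESeq2 size factors. Without PBS 2 and 4 it was 0.11, and without STING agonist 2 it was 0.36. Bcl2 was counted at a mean of 35.8 raw counts per tumor, against a background (mean plus 2 SD of the negative controls) of 8.62. How much of its spread was counting error was not tested. Bcl2l1 had 287, 401 and 295 normalized counts in the PBS samples and 338, 277, 342 and 339 in the treated samples. The average of PBS 2 and 4 was the highest value and STING agonist 2 the lowest, and the log2 fold change was -0.01 with a standard error of 0.17 (95% interval -0.41 to 0.38, adjusted p = 0.987, edgeR). It was 0.05 with the positive control probes, -0.29 with TMM, -0.30 with DESeq2 size factors and -0.20 with the total count, and it was 0.16 without PBS 2 and 4, 0.05 without STING agonist 2 and -0.10 without PBS 1.

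Ratios of counts within a sample need no scale. Bax over Bcl2l1 was 0.681, 0.555 and 0.795 in the PBS samples and 0.869, 0.855, 0.815 and 0.776 in the treated samples. STING agonist 4 was the treated sample inside the PBS range, and the other 3 were above it. Bid over Bcl2l1 was 0.806, 0.610 and 0.721 in the PBS samples and 0.782, 0.960, 0.818 and 0.909 in the treated samples, with STING agonist 1 inside the PBS range. Bax over Bcl2 overlapped widely, with means of 6.70 ± 1.47 (SD, n = 3) and 6.99 ± 1.01 (SD, n = 4). These ratios were not tested.

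**Figure D2:**
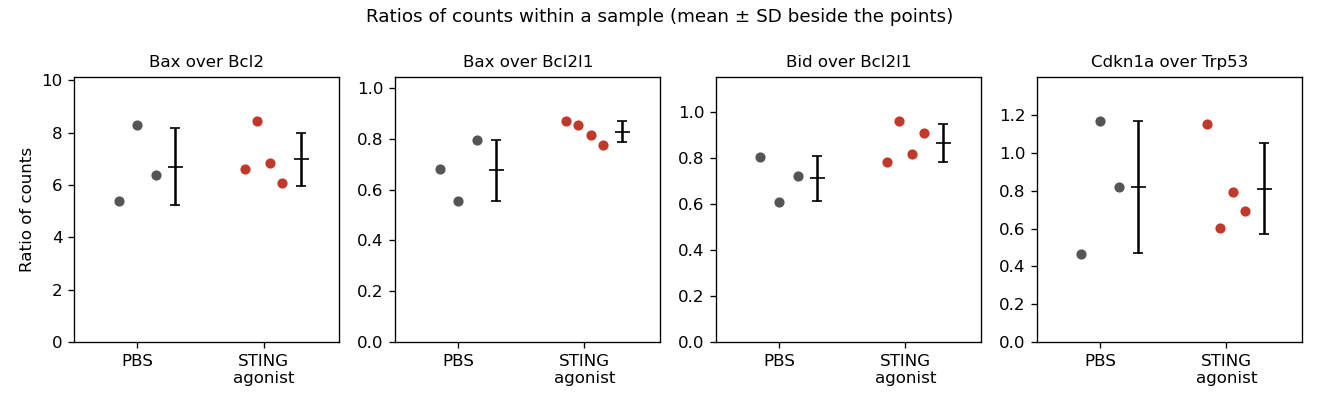
Ratio of the counts of pairs of genes within each sample (points; PBS grey, n = 3; STING agonist red, n = 4), with the group mean and SD beside the points. In each of the 4 ratios at least 1 treated sample lies inside or below the range of the PBS samples.

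In the death receptor arm, Casp8, the initiator caspase, had 549.5, 378 and 501 normalized counts in the PBS samples and 600.3, 642, 576 and 539 in the treated samples. STING agonist 4 lay just below PBS 1, and the other treated samples were above all PBS samples. The means were 476 ± 88.7 and 589 ± 43.1 (SD), with a log2 fold change of 0.31, a standard error of 0.17 and a 95% interval of -0.07 to 0.68 (adjusted p = 0.354, edgeR). It was 0.17 without PBS 2 and 4, 0.08 with TMM, 0.06 with DESeq2 size factors and 0.10 with the total count, and the highest of 22 alternatives was 0.42, without PBS 1. Fadd, the adaptor that recruits it, had 25.0, 26.8 and 29.5 normalized counts in the PBS samples and 49.1, 30.6, 26.6 and 38.8 in the treated samples. STING agonist 3 lay inside the PBS range. Fadd had a low count (mean 31.3) and a log2 fold change of 0.42 with a standard error of 0.32 (95% interval -0.30 to 1.14, adjusted p = 0.514, edgeR), or 0.24 without STING agonist 1, 0.16 with TMM and 0.54 without STING agonist 3.

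Trp53, which encodes p53, had 427, 281 and 368 normalized counts in the PBS samples and 336, 413, 304 and 338 in the treated samples. The treated samples all lay inside the PBS range. The log2 fold change was -0.05 with a standard error of 0.19 (95% interval -0.47 to 0.38, adjusted p = 0.926, edgeR), and it was 0.10 without PBS 1, -0.19 without PBS 2 and 4 and -0.28 with TMM. Cdkn1a had 200, 328 and 302 normalized counts in the PBS samples and 388, 249, 240.1 and 234 in the treated samples. STING agonist 1 was above all PBS samples and the other 3 treated samples were inside the PBS range. The log2 fold change was 0.01 with a standard error of 0.25 (95% interval -0.56 to 0.57, adjusted p = 0.993, edgeR), but -0.20 without STING agonist 1, -0.18 without PBS 1, 0.14 without PBS 2 and 4 and -0.26 with TMM. Cdkn1a over Trp53 was 0.468, 1.17 and 0.820 in the PBS samples and 1.15, 0.604, 0.791 and 0.692 in the treated samples, so the PBS samples spanned the treated ones. Birc5, the inhibitor of apoptosis of dividing cells, had 373, 298 and 307 normalized counts in the PBS samples and 376, 297, 329 and 372 in the treated samples. STING agonist 1 was marginally above and STING agonist 2 marginally below the PBS samples, and the log2 fold change was 0.08 with a standard error of 0.16 (95% interval -0.29 to 0.44, adjusted p = 0.868, edgeR). Its alternatives ran from -0.20 with DESeq2 size factors (-0.19 with TMM) to 0.18 without PBS 1, with 0.02 without PBS 2 and 4 and 0.03 without STING agonist 1.

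**Figure D3:**
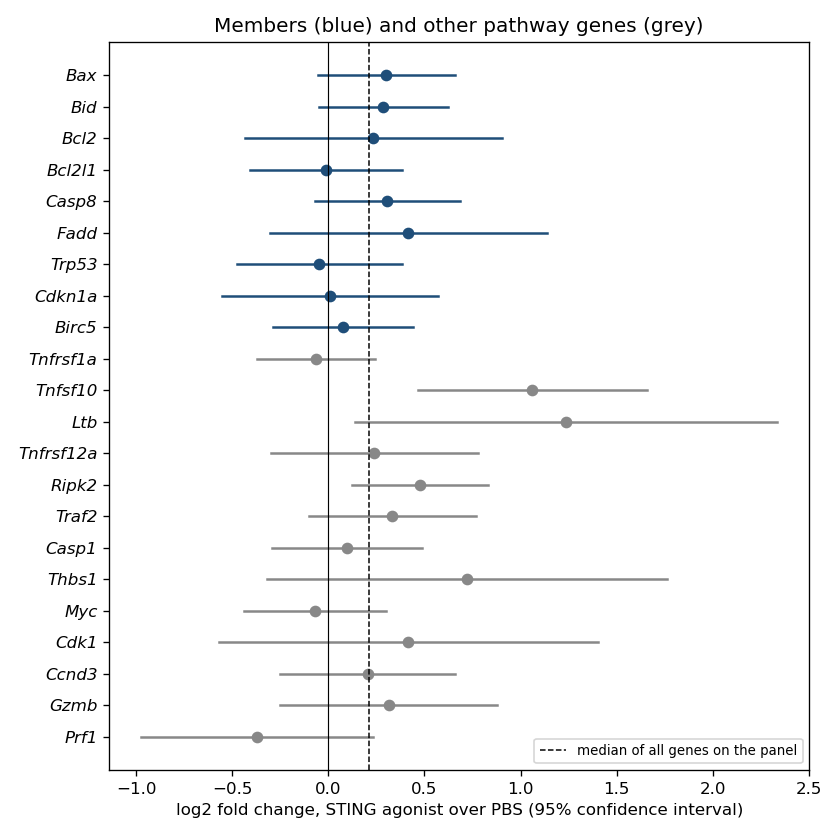
Log2 fold change, STING agonist over PBS, with its 95% confidence interval from edgeR, for the 9 genes (blue) and other named pathway genes (grey), with the housekeeping scale; the dashed line is the median of all 750 genes, 0.21. The intervals of the 9 genes all include 0, and those of Tnfsf10, Ltb and Ripk2 do not.

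**Figure D4:**
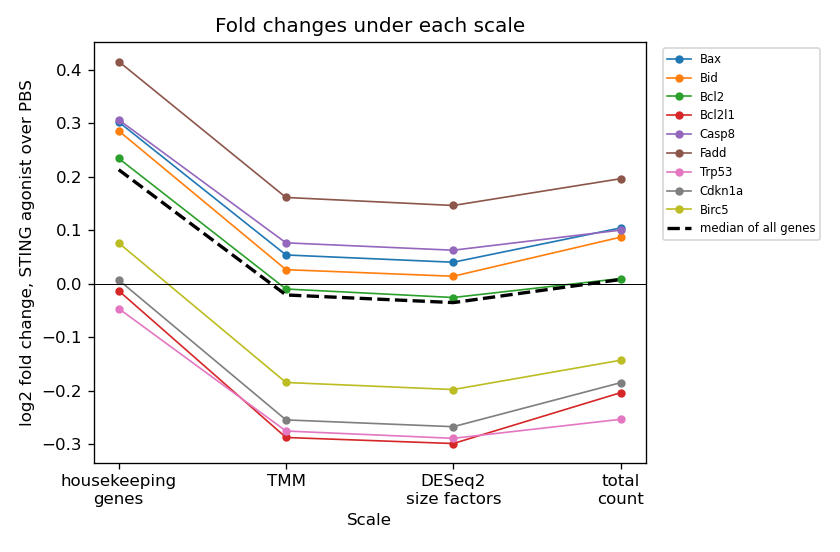
Log2 fold change of each of the 9 genes, STING agonist over PBS, under 4 ways of scaling the samples, with the median of all 750 genes as a dashed line. With TMM, Bax moves from 0.30 to 0.05 and Trp53 from -0.05 to -0.28, while the panel median moves from 0.21 to -0.02.

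The 9 genes differed in how much they varied within a group. Among the 322 genes that averaged 100 counts or more, whose median within-group SD was 0.26 on the log2 scale, Bid (0.10) and Bax (0.13) were among the steadier, Birc5 stood at 0.17, Casp8 and Bcl2l1 at 0.20, Trp53 at 0.24, and Cdkn1a varied more, at 0.36. Over the 7 samples, the panel genes closest to each gene in centred log2 level, by root mean square difference, were Rsad2 for Bax (0.06), H2-M3 for Bid (0.08), Il15ra for Bcl2 (0.11), H2-D1 for Bcl2l1 (0.07), Cd47 for Casp8 (0.07), Bst2 for Fadd (0.10), Ulbp1 for Trp53 (0.11), Cebpb for Cdkn1a (0.13) and Psen2 for Birc5 (0.06). The next closest were Fyn, H2-K1, Ddx60, C1qbp, Tmem173, Cklf, Smad4, Mapk3 and Prkcd, in the same order. These are descriptions of 7 samples, among 518 candidate genes with a mean of at least 20 counts.

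Other genes of these pathways were described from lists of 27 genes on the panel, of which 22 had a positive log2 fold change (median 0.24), against 531 of the 750 panel genes. Of the 27, 3 had an unadjusted p under 0.05, all higher, beside 17.7% of the panel, and these 3 also had groups that did not overlap, beside 16.8%. None had an adjusted p under 0.05 in edgeR. A list of 13 genes held death receptors, their ligands and other TNF family genes, with Ltb and Tnfrsf12a among the latter. In this list Tnfsf10, the ligand TRAIL, had 37.0, 31.5 and 49.0 normalized counts in the PBS samples and 85.3, 78.2, 68.5 and 97.1 in the treated samples. All treated samples lay above all PBS samples. The log2 fold change was 1.06 with a standard error of 0.26 (95% interval 0.47 to 1.66, adjusted p = 0.171, edgeR), and the Wald test of DESeq2 gave an adjusted p of 0.011 where the other settings ran up to 0.384. Ltb, a ligand of lymphoid tissue, was higher without overlap at low counts, 14.8, 5.83 and 17.3 against 43.2, 20.8, 18.4 and 39.7. Its log2 fold change was 1.24 (standard error 0.48, adjusted p = 0.223, edgeR). The unadjusted p of Ltb was under 0.05 in 15 of 22 alternatives. Over all 22, its log2 fold change ran from 0.61 to 1.59. The 2 genes of the list with the highest counts, Tnfrsf12a and the TNF receptor gene Tnfrsf1a, had log2 fold changes of 0.24 and -0.06, or -0.03 and -0.31 with TMM. Tnfrsf12a was at 0.06 without PBS 1, 0.12 without STING agonist 4 and 0.38 without STING agonist 2. Tnfrsf1a was below 0 in all 22 alternatives, from -0.33 with DESeq2 size factors, where its unadjusted p was 0.043, to -0.01 without STING agonist 2.

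Of 4 adaptors and caspases, Ripk2, a kinase in NOD receptor signaling, had 137, 141 and 149.9 normalized counts in the PBS samples and 199, 197, 182 and 217 in the treated samples, with no overlap (log2 fold change 0.48, standard error 0.16, adjusted p = 0.191, edgeR). Its log2 fold change was 0.23 with TMM, 0.22 with DESeq2 size factors and 0.28 with the total count, and its unadjusted p was no longer under 0.05 on these scales, with the positive control probes (0.52) or without STING agonist 4 (0.43). Traf2, an adaptor of TNF receptors, was at 0.33 with a standard error of 0.19 and overlapping groups. It was at 0.55 without PBS 3, where its unadjusted p was 0.016 in edgeR (1 of 22 alternatives under 0.05), but at 0.20 without PBS 1, 0.10 with TMM and 0.09 with DESeq2 size factors. Casp1, also overlapping, was at 0.10, and from -0.20 with DESeq2 size factors to 0.20 without PBS 2 and 4. Of 3 p53 pathway genes, Thbs1 was at 0.72 with a standard error of 0.46, but at 0.33 without PBS 1 and 0.39 without STING agonist 1, and Myc was at -0.07, or -0.29 with TMM and 0.09 without PBS 3, both with overlapping groups. The 2 cell cycle genes Cdk1 and Ccnd3 were at 0.42 and 0.20, Cdk1 at a mean of 9.38 counts near background and Ccnd3 at -0.05 with TMM. Without STING agonist 1 they were at 0.014 and 0.094, and Ccnd3 was at 0.063 without PBS 1 and 0.31 without PBS 3. Of 5 cytotoxic granule genes, 4 had a positive log2 fold change and 0 had separated groups. Gzmb was at 0.31, or 0.16 without PBS 1, 0.05 with TMM and 0.48 without STING agonist 2, where its unadjusted p was 0.042. Prf1 was at -0.37, or -0.19 without STING agonist 2 and -0.56 without STING agonist 3 (unadjusted p = 0.063, edgeR). With TMM and DESeq2 size factors it was at -0.63 and -0.65, with unadjusted p-values of 0.035 and 0.030.

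Markers of cell types in the tumor are given beside these values, and their part in them was not tested. Over the whole panel, 16.8% of genes were higher and 1.47% lower without overlap. The summed normalized counts of 17 leukocyte markers were 1665, 1333 and 1999 in the PBS samples and 3198, 1903, 2189 and 2871 in the treated samples, with 7 of 17 higher without overlap, Cd68 having the highest count, and 8 of 17 at a mean under 20 counts. STING agonist 2 was the treated sample inside the PBS range. The sums of 7 fibroblast and pericyte markers, with the highest count in Col3a1, were 15434, 14848 and 14396 against 13679, 13619, 11434 and 14356, all treated samples below. Col3a1 itself had means of 8164 and 6099, a difference larger than that of the sums (14893 and 13272). Of the 7 genes 2 were lower without overlap, 3 had a positive log2 fold change, and Col1a1, picked out after its values were seen, was at 0.73. Those of 6 endothelial markers, with the highest count in Cd34, overlapped, with means of 3061 and 3127. Cd34 gave most of the counts in these sums (means of 2739 and 2673), while 5 of 6 genes had a positive log2 fold change (median 0.34) and 1 of 6 was higher without overlap. The 4 epithelial markers summed to 60.1, 53.6 and 81.4 against 67.7, 34.2, 63.4 and 75.0, Cdh1 having the highest count at a mean of 23.1 counts and Epcam near background at 10.8, in samples labelled as colon, with 0 of 4 separated. The 6 hepatocyte markers summed to 38.9, 43.1 and 59.8 against 40.9, 31.8, 26.6 and 1052, of which Ambp alone gave 762 in STING agonist 4 and at most 11.7 elsewhere, with 0 of 6 separated. Without STING agonist 4, the log2 fold changes of Bax and Bid were 0.31 and 0.24.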

How the data were processed

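The authors deposited whole-number probe counts of 8 tumors, neither scaled nor background-subtracted; the lowest count was 1, and 606 of 750 genes had a mean above background. Their methods scale to housekeeping genes in nSolver and R, with versions not given in the sources used here. Here each sample was divided by its geometric mean of the 20 housekeeping probes. The 2 groups entered a quasi-likelihood fit in edgeR 4.0.16 under R 4.3.3 on all 750 genes, with Benjamini-Hochberg adjustment, after averaging PBS 2 and 4, and with a two-sided exact permutation test on log2(normalized count + 1). DESeq2 1.42.0, limma 3.58.1, other scales, a filter at a mean of 20 counts, background subtraction and left-out samples were alternatives. The edgeR step was tested on simulated data of 750 genes, where it recovered 95.7% of 200 genes changed 4-fold, with 3.03% of calls false. Smaller changes were not simulated. The 9 genes had log2 fold changes from -0.05 to 0.42, so the simulation does not say how often changes of their size would be found. The members and lists were chosen with earlier results of these data known. Named were all members, genes of the pathway lists with an unadjusted p under 0.05 or separated groups, the 2 with the highest mean count in each list, and for each member the 2 panel genes closest in profile; a list of other BCL-2 family genes had 0 on the panel. The values of 1 further gene of the pathway lists are not reported here, and it was left out of the counts of those lists but not of the panel. All 9 symbols were found in the RefSeq table (GRCm38.p6). Python 3.11.15 was used for permutation tests, motif searches and figures.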

Additional observations from a re-analysis of the deposited data

Results flagged for a closer look

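In 3 of 22 named genes, 1 of the 4 treated samples stood apart from the other 3, the gap divided by the range being above Dixon's critical value; chance gives this in about 1 group in 20. Bcl2l1 was low in STING agonist 2 (gap of 0.926 of the range), Cdkn1a high in STING agonist 1 (0.899) and Gzmb low in STING agonist 2 (0.873).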

How the results depend on the processing

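Bax, Bid, Casp8 and Fadd had positive log2 fold changes in all 22 alternatives, the lowest being 0.04, 0.01, 0.06 and 0.15. Most alternatives keep the housekeeping scale and share samples, so they are not independent of each other. On that scale 531 of the 750 panel genes were positive in the main fit, and how many stayed positive in all alternatives was not counted. With TMM, DESeq2 size factors, the total count and the positive controls, 0 of the 9 genes had separated groups, where the panel of 750 had 70, 68, 67 and 72 higher and 48, 52, 37 and 8 lower; these counts, and the medians of the 9 genes, were added after seeing the data. With TMM the median log2 fold change of the 9 genes was -0.010 and values turned to -0.010 for Bcl2, -0.255 for Cdkn1a, -0.185 for Birc5, -0.033 for Tnfrsf12a, -0.188 for Casp1 and -0.048 for Ccnd3. With DESeq2 size factors the median was -0.026 and the values were -0.026 for Bcl2, -0.268 for Cdkn1a, -0.198 for Birc5, -0.047 for Tnfrsf12a, -0.199 for Casp1 and -0.062 for Ccnd3. With the total count the median was 0.0095, with -0.185 for Cdkn1a, -0.143 for Birc5 and -0.110 for Casp1; with the positive controls Bcl2l1 was at 0.053. The cause was not tested.

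The Wald test of DESeq2 gave 52 panel genes with an adjusted p under 0.05. With all 8 tumors separate, 0 had an adjusted and 201 an unadjusted p under 0.05. Of the 9 genes, the count at an unadjusted p under 0.05 was 1 with limma and a pseudocount of 20 (Bid; panel 143 higher, 9 lower), 2 with the unpaired test the study's statistics section names (Bax and Bid; panel 102 and 8) and 1 with all 8 tumors separate (Casp8; panel 186 and 15). With all 8 tumors separate, Trp53 was at 0.029 and Cdkn1a at -0.062.

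The same replicate numbers occur in both groups, but same-numbered samples did not deviate together (correlations of -0.06, -0.08, -0.28 and -0.13), so the numbers were not used as pairs. With the replicate block and all 8 tumors separate, 0 genes had an adjusted and 172 an unadjusted p under 0.05, Trp53 was at 0.043 and Cdkn1a at -0.075.

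Leaving out each sample in turn, or either of the similar PBS pair, gave 0 to 7 panel genes with an adjusted p under 0.05 (1 without PBS 3, 7 without STING agonist 3), 84 to 160 with an unadjusted one (84 without STING agonist 1, 89 without STING agonist 4), 0 of the 9 genes with an unadjusted one and 2 to 3 with separated groups. The panel then had 122 to 235 genes higher and 9 to 31 lower without overlap (235 and 18 without PBS 3, with 2 of the 9; 155 and 31 without PBS 1, 183 and 15 without STING agonist 2, 171 and 25 without STING agonist 3 and 137 and 19 without STING agonist 4, each with 3 of the 9). The median log2 fold change of the 9 genes lay between 0.16 and 0.28. With 1 of PBS 1, PBS 3 and the 4 treated samples left out, Trp53 ran from -0.14 to 0.098 (above 0 without PBS 1 or STING agonist 3), Cdkn1a from -0.197 to 0.081 (below 0 without PBS 1 or STING agonist 1), Bcl2l1 from -0.100 to 0.054 (above 0 without STING agonist 2), Casp1 from -0.020 to 0.188 (below 0 without PBS 3) and Myc from -0.158 to 0.092 (above 0 without PBS 3). Without PBS 2 and 4, Casp8 was at 0.165, Bcl2 at 0.107, Birc5 at 0.017, Bcl2l1 at 0.157, Trp53 at -0.194, Cdkn1a at 0.144 and Casp1 at 0.203. With PBS 4 in place of the average, Cdkn1a was at -0.0079. Among the 9 genes and the other pathway genes described, Bcl2, Fadd, Ltb and Cdk1 had the lowest mean counts, at 35.8, 31.3, 20.8 and 9.38. How far depth limited them was not tested.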
